A study of Mus musculus with 2 samples.

Results

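Coding-exon DHSs are DNase I hypersensitive sites whose midpoint lies in protein-coding sequence, away from promoters. A DHS was a merged region that held a peak of both libraries, and a coding-exon DHS was one with its midpoint in a CDS exon of a protein-coding gene and over 1 kb from every annotated transcription start site (TSS). Of 78165 DHSs shared by both libraries, 52908 were over 1 kb from any TSS, and 1068 of these were coding-exon DHSs, or 2.02% of the distal set and 1.37% of all shared DHSs. The rule used position and the presence of a called peak in both libraries, so it leaves out sites too weak to be called in either one. It set no threshold on signal beyond the authors' peak calls and used neither footprints nor sequence. A further set of shared regions with a coding midpoint lay closer to a TSS and was left out, since 2587 shared regions had a coding midpoint at any distance.

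DNase-seq was done on left cerebral cortex from 2 mice, numbered as separate females by the labels and 14 days old. The mice were B6CASTF1/J, the first-generation cross of C57BL/6J and CAST/EiJ, with no further allele, agent or treatment in the labels. The libraries formed 1 group with biological replicate numbers 1 and 2 under 1 donor record, so there was no contrast between conditions, no test and no p-value. The DNA came from the whole tissue, and a site open in few cells cannot be told apart from one that is weakly open in many.

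DNase I cuts DNA preferentially where nucleosomes are displaced, and a short stretch inside such a site that is cut less than its flanks is called a footprint, since a bound protein can shield it. Most open sites of a tissue are promoters or enhancers in introns and between genes. Exons can also be open, because some enhancers overlap coding sequence, because promoters of other transcripts can lie inside a gene, and because the architectural protein CTCF binds inside exons as well as outside them.

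The sequences of a few sites are given first, because the results below turn on what these exons contain besides codons. All are written 5′ to 3′ on the strand of the gene, with coordinates on mm10 and sequence from the RefSeq copy of that assembly. In the first 3 the capitals mark bases inside footprints of both libraries, and the stretches come from the centre of 3 of the 5 coding-exon DHSs with the highest mean signal, with the B430305J03Rik stretch cut to its coding bases. Angptl6 encodes an angiopoietin-like secreted protein and Fbxl22 an F-box protein of striated muscle. B430305J03Rik is a gene known by a clone name.
Angptl6, chr9:20878231-20878430, minus strand: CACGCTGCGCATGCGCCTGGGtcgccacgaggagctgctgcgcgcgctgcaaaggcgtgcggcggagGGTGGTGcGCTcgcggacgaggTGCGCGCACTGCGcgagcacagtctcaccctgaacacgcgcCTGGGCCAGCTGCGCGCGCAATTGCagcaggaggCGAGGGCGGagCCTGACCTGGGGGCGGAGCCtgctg
Fbxl22, chr9:66511711-66511910, minus strand: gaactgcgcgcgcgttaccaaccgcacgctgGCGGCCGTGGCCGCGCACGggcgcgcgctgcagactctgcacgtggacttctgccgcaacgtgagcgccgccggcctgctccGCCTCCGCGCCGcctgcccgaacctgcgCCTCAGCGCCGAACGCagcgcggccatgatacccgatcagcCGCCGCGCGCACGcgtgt
B430305J03Rik, chr3:61363795-61363920, minus strand: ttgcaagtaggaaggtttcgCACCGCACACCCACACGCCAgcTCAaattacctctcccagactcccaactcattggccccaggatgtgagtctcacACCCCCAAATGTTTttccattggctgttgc
In the next set the capitals mark a consensus match that lay wholly inside a footprint of both libraries, with 30 bases on either side. The CTCF matches were in Synpo2l, which encodes an actin-associated protein of striated muscle, and Dgki, a diacylglycerol kinase gene. In Synpo2l all 72 bases were coding, and in Dgki 20 of 72 were coding and the match itself was intronic, just past the splice donor.
Synpo2l, chr14:20661132-20661203, minus strand: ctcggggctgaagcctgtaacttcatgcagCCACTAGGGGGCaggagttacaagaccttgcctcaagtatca
Dgki, chr6:37097500-37097571, minus strand: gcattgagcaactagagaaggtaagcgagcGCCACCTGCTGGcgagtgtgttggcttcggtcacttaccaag
An EGR match (GCGNGGGCG on either strand) is shown in Frem2, which encodes an extracellular matrix protein, and in Lactbl1. An NRF1 match is shown in Dapk3, a kinase gene. The other footprinted NRF1 match chosen by signal lay in Angptl6, near the 5′ end of the stretch printed above. The single footprinted NFI match was in Brd7, a bromodomain gene, and the single footprinted CRE match (TGACGTCA) in Krt88, a keratin gene.
Frem2, chr3:53525837-53525905, minus strand: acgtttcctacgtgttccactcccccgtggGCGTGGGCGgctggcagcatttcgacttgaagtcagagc
Lactbl1, chr4:136637672-136637740, plus strand: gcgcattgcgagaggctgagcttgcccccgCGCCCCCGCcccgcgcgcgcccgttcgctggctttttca
Dapk3, chr10:81192725-81192794, plus strand: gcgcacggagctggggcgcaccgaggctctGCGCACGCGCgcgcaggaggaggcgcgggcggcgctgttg
Brd7, chr8:88339463-88339537, minus strand: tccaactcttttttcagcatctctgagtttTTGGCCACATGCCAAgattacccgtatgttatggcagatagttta
Krt88, chr15:101453452-101453519, plus strand: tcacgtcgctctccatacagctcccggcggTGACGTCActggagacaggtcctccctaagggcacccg
The Frem2 region had a signal of 2.25 in replicate 1 and 2.51 in replicate 2, Lactbl1 1.91 and 1.98, and Dapk3 2.70 and 2.62. Krt88 had 2.07 and 1.22, and Brd7 was the weakest of the 5, with 0.709 and 0.563. These 5 were not shown for their rank: each was the strongest region whose match lay in a footprint of both libraries, or 1 of the strongest 2.

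Coding DNA held more shared DHSs per base than the other distal DNA. There were 42.6 coding-exon DHSs per Mb over 25.1 Mb of coding DNA beyond 1 kb from any TSS, against 33.3 per Mb of other exons, 25.1 per Mb of introns and 17.5 per Mb of intergenic DNA. The share of bases inside the authors' segments of raised cleavage (q-value at most 0.05) followed the same order in both libraries. Coding DNA had 1.31% in replicate 1 and 2.42% in replicate 2, introns 0.617% and 1.70%, and intergenic DNA 0.457% and 1.17%. The nearest other shared DHS lay at a median of 5220 bp from a coding-exon DHS and 7120 bp from an intronic one, and 22.9% of coding-exon DHSs had a neighbour within 1 kb, against 13.6% of intronic ones.

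The libraries gave different numbers of coding-exon peaks. Replicate 1 had 90059 peaks and 199455 footprints in all, and replicate 2 had 175597 peaks and 416840 footprints, so more of its weaker sites were called. By itself replicate 1 gave 1389 coding-exon peaks and replicate 2 gave 2380. Of the merged coding-exon regions with a peak in replicate 1, 81.5% were shared, a lower share than in introns (90.8%) or intergenic DNA (89.3%). Of those with a peak in replicate 2, 45.4% were shared, a higher share than in introns (38.4%) or intergenic DNA (39.8%). The 243 coding-exon regions seen in replicate 1 alone had a median signal of 0.408, and the 1286 seen in replicate 2 alone a median of 0.353, both below the shared ones.

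Each deposited peak carries a signal value, on a scale that the sources used here do not explain. The 1068 coding-exon DHSs had a median signal of 0.686 in replicate 1 and 0.692 in replicate 2. The 10th and 90th percentiles were 0.385 and 1.77 in replicate 1 and 0.338 and 1.60 in replicate 2. Values were whole multiples of 1 step in each library, 0.00771 in replicate 1 and 0.00498 in replicate 2, to within 0.0103 of a step. The median coding-exon DHS stood at 89 steps in replicate 1 and 139 in replicate 2.

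Coding-exon DHSs were about as strong as other distal DHSs. Their median divided by the intronic median was 1.03 in replicate 1 and 0.908 in replicate 2, a mean of 0.972 ± 0.0894 (SD, n = 2), so the libraries fell on either side of equality. Against intergenic DHSs the ratios were 1.09 and 0.979, also on either side. Against DHSs in other exons, which are mostly untranslated or non-coding exons, they were 0.881 and 0.818, below 1 in both. At the 90th percentile the libraries again fell on either side, with 1.77 in coding exons and 1.67 in introns in replicate 1, and 1.60 and 1.66 in replicate 2.

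**Figure D1:**
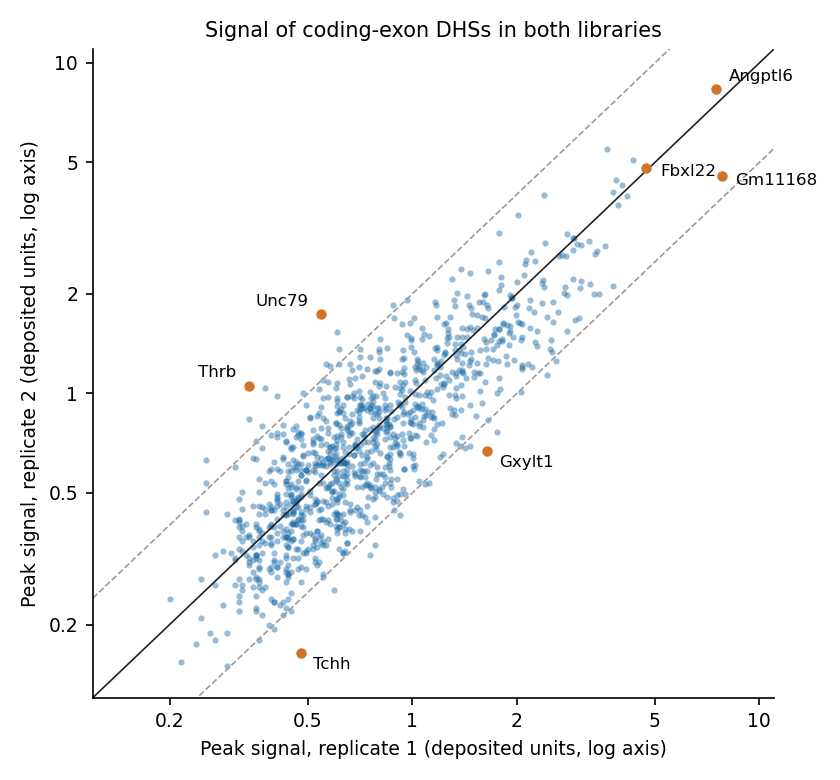
Deposited peak signal of each of the 1068 coding-exon DHSs in replicate 1 (x axis) and replicate 2 (y axis), both on log axes. The solid line marks equal signal and the dashed lines a 2-fold difference; most points lie between the dashed lines, and 7 sites named in the text are drawn in orange.

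The strongest coding-exon DHSs lay in genes of varied function. The highest was in the first coding exon of Angptl6 (chr9:20878141-20878520, wholly coding), with a signal of 7.52 in replicate 1 and 8.34 in replicate 2. The next was in Gm11168 (chr9:3006800-3006920), with 7.83 and 4.54, but all of its 31-base stretches occur elsewhere in the genome, so reads from other copies may be counted there. The third was in the last coding exon of Fbxl22 (chr9:66511601-66512020), with 4.70 and 4.81. In Fbxl22 both libraries gave nearly the same value, while Gm11168 was higher in replicate 1.

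The other 7 of the 10 highest lay between 3.65 and 5.48 in both libraries. Ino80c, which encodes a subunit of the INO80 chromatin remodeller, had 4.34 and 5.07, over an internal exon. B430305J03Rik had 3.65 and 5.48. Rsad1, a gene for a radical SAM protein, had 3.87 and 4.44 over coding exon 5 of 9. Synpo2l had 4.01 and 4.26 in a wholly coding region of its last coding exon, which had 2162 coding bp. Zfp771, a zinc finger gene, had 4.15 and 3.96 in its last coding exon, and the region held 65 CpG sites. Ctc1, which encodes a telomere maintenance protein, had 3.78 and 4.07 over the last of 23 coding exons, and 1700008O03Rik had 3.91 and 3.71, also in its last. Last coding exons made up 4 of these 7, and 6 of the 10 with Gm11168 and Fbxl22. At the other end, chosen after their values were seen, the lowest mean signals were in Spef2, a sperm flagellum gene (0.216 and 0.154), and Ndn, an imprinted neuronal gene (0.239 and 0.174), and neither region held a footprint in either library.

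Some of the strongest sites are close to transcript starts that a second annotation holds. RefSeq transcripts on the same assembly start within 1 kb of 58 coding-exon DHSs, or 5.43%, against 3.64% of intronic and 4.52% of intergenic distal DHSs. Among the 50 coding-exon DHSs with the highest signal there were 8, of which 5 are named here after their values were seen. The Angptl6 region lay 269 bp from such a start, B430305J03Rik 686 bp from one of Rap2b, and 2310034G01Rik (3.22 and 2.90) 17 bp from one of its own. Psmc2, a proteasome subunit gene (3.78 and 2.12), lay 16 bp from one, and Unc13a (3.07 and 2.82) 18 bp from one of Gm39195. Without the 58, 1010 regions remained.

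Regions next to the distance limit were both weak and strong. Just inside it, at 1003 bp, lay a region in Frzb, a Wnt antagonist gene, with signals of 0.447 and 0.249, and one in Ddit4, an inhibitor of mTORC1 signalling, with 2.00 and 1.86. Just outside it, at 999 and 998 bp, lay regions near the starts of Gimap1 (0.331 and 0.259) and Mycs (0.262 and 0.174). At the far end, a region also picked after its value was seen, the coding-exon DHS of Myo16, an unconventional myosin gene, was 202149 bp from the nearest TSS and had signals of 1.19 and 1.24. The median distance was 4790 bp, against 4548.5 bp for other-exon and 10972 bp for intronic DHSs.

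The spread between libraries is given for regions called in both, so the 243 and 1286 coding-exon regions called in 1 library alone, where larger gaps may lie, are outside it. The log2 ratio of replicate 2 to replicate 1 had a median of -0.08 and an SD of 0.48 over the 1068 regions, where intronic DHSs had an SD of 0.53 and intergenic ones 0.57. Only 3.09% of coding-exon DHSs differed by over 2-fold, against 5.68% of intronic and 7.13% of intergenic ones. Over the 1068 regions the log2 signals of both libraries had a Pearson r of 0.849, which is given as a description, since regions of 1 library share its depth.

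The widest gaps, among the 534 regions in the upper part by mean signal, were of both signs. Unc79, which encodes a subunit of the NALCN sodium leak channel complex, had 0.547 in replicate 1 and 1.74 in replicate 2, a log2 ratio of 1.67. Thrb, a thyroid hormone receptor gene, had 0.339 and 1.06. Dusp16, a MAP kinase phosphatase gene, had 0.378 and 1.04, Nup210l had 0.609 and 1.54, and Kcnb2, a potassium channel gene, had 0.408 and 0.986. In the other direction, Gxylt1, a xylosyltransferase gene, had 1.64 and 0.672, a log2 ratio of -1.29. Lrrk1 had 1.76 and 0.767, Dglucy 2.45 and 1.13, the Polycomb gene Pcgf2 1.46 and 0.692, and Cyp4f18 1.42 and 0.682. The first 5 had GC contents from 41.4% to 51.2% and the last 5 from 47.5% to 60.5%, and 3 of the last 5 (Lrrk1, Dglucy and Pcgf2) held a CTCF match.

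Relative to coding bases, coding-exon DHSs were rarer in internal coding exons and more common in first, last and single ones. By the transcript with the longest CDS over each midpoint, 589 (55.1%, 95% Wilson interval 52.2 to 58.1) were in internal coding exons, which hold 72.4% of the coding bases over 1 kb from any TSS. Last coding exons held 304 (28.5%, 25.8 to 31.2) with 18.5% of the bases. Genes with a single coding exon held 107 (10.02%, 8.36 to 11.97) with 5.11% of the bases, and first coding exons 68 (6.37%, 5.05 to 7.99) with 3.98%. Along the coding sequence the share rose from 11.6% in part 1 of 5 equal parts to 29.7% in part 5, while the coding bases themselves went from 15.0% to 22.8%. The intervals cover counting error only, and the base shares use the longest CDS of each gene. A region can instead be placed on a shorter transcript, as in Cacna1b, with coding exon 2 of 3 at 1 site and 19 of 47 at another. The part of this in the gaps was not tested.

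**Figure D2:**
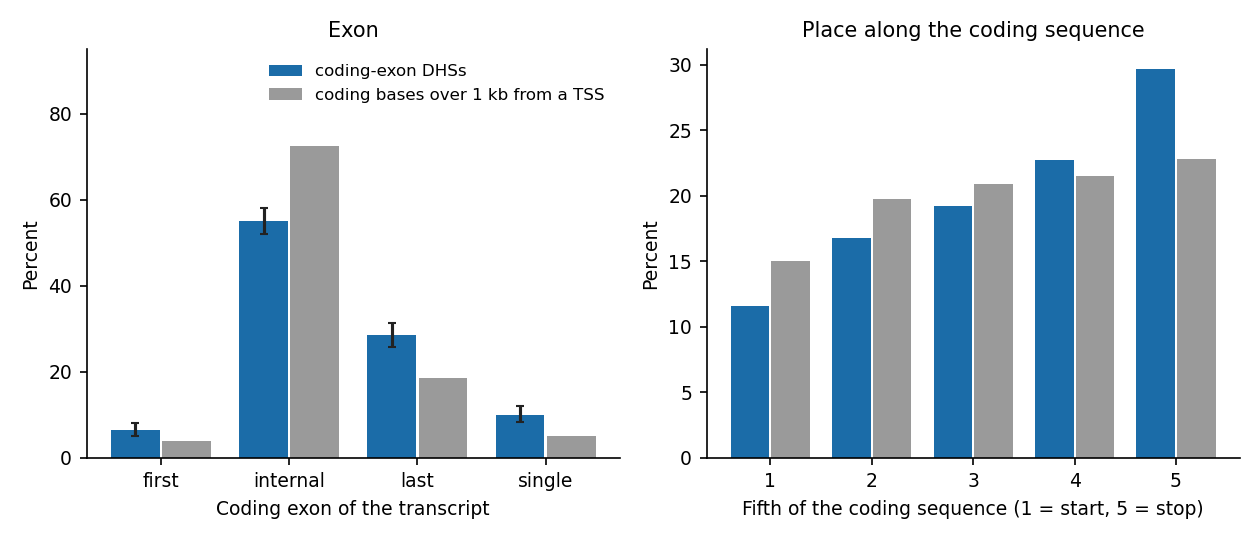
Left, percent of coding-exon DHSs (blue, with 95% Wilson intervals for counting error) and percent of coding bases over 1 kb from any TSS (grey) in first, internal, last and single coding exons. Right, the same percents in 5 equal parts of the coding sequence. Blue and grey bars can rest on different transcripts of a gene. The DHSs exceed the bases in first (6.37% against 3.98%), last (28.5% against 18.5%) and single exons (10.02% against 5.11%). They also exceed them in part 5 (29.7% against 22.8%) and fall below them in internal exons (55.1% against 72.4%).

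Signal and composition differed by position. Regions in last coding exons had medians of 0.828 and 0.839, those in internal exons 0.647 and 0.692, in single exons 0.647 and 0.582, and in first exons 0.624 and 0.503. First and single exons were thus no stronger than internal ones. Median GC content was 59.2% in last, 62.6% in single, 60.6% in first and 53.3% in internal coding exons. Regions in first and single exons lay closest to a TSS, at medians of 1564 and 1536 bp, and 22.1% and 11.2% of them were within 1 kb of a RefSeq start, against 2.21% in internal exons.

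Most coding-exon DHSs also took in DNA outside the coding sequence. The median width was 229 bp, near that of intronic DHSs (220 bp). The coding part of the exon under the midpoint had a median length of 233 bp. In all, 76.5% of their bases were coding, 18.4% intronic and 4.96% in other exons. A coding boundary was crossed by 700 regions (65.5%, 62.6 to 68.3), while 368 were wholly coding. The splice acceptor of the exon lay inside 480 regions, the donor inside 365 and both inside 223. Exons with a coding part over 1 kb long held 216 regions (20.2%) and 17.0% of the coding bases.

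Footprints were found in most coding-exon DHSs. In replicate 1, 83.1% had at least 1, with a mean of 2.08 a region, and in replicate 2, 93.6%, with a mean of 2.98. In both libraries at once the share was 79.7% (77.2 to 82.0), beside 81.4% of intronic, 78.8% of intergenic and 85.5% (83.9 to 87.0) of other-exon DHSs, the last with an interval above that of coding exons. Footprints covered 9.34% of their bases in replicate 1 and 14.8% in replicate 2, less than the 10.1% and 16.4% of intronic DHSs. Among the strongest distal DHSs (group 5 of 5 by mean signal), coding-exon DHSs had 3.56 and 4.20 footprints a region and intronic ones 3.18 and 3.82, and among the weakest (group 1) 0.903 and 1.47 against 0.810 and 1.71.

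The regions with most footprints were long and rich in CpG. Pcdh10, which encodes a protocadherin, had 17 footprints in replicate 1 and 21 in replicate 2 over 2033 bp of its first coding exon, with signals of 0.763 and 0.672. Lactbl1 had 11 and 11 over 560 bp, and a region of Tchh 11 and 11 over 600 bp. Amh, which encodes anti-Müllerian hormone, had 9 and 10, with signals of 2.20 and 2.67, and Islr2, a neuronal membrane protein gene, had 9 and 10, with 0.994 and 1.38. Another Tchh region tied with the last 2, with 10 and 9 over 440 bp. The CpG observed over expected ratios of these 6 ran from 0.770 in that Tchh region to 1.13 in Lactbl1.

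Footprints sat on the coding side of splice acceptors more than on the intronic side, while near donors the order depended on the bin. At acceptors in these regions, 11.5% of the first 10 exonic bases lay in a footprint in replicate 1 and 18.5% in replicate 2, while the last 10 intronic bases had 8.41% and 13.6%. From 30 to 39 bases into the exon the shares were 18.4% and 22.8%. At donors, the last 10 exonic bases had 9.64% and 12.8%, and the first 10 intronic ones 7.07% and 11.02%. From 20 to 29 bases into the intron the shares were higher than in those last exonic bases, at 10.9% and 18.1%. Exonic bases 11 to 20 before the donor had 13.1% and 20.2%. The midpoint of every region is coding by the rule, and footprints are denser near midpoints, so the contrast at exon edges is not separate from distance. Bins of distance narrow this only in part, since intronic bases lie towards the far side of each bin (8368 within 50 bases of the midpoint and 24828 from 50 to 100). Within 50 bases of the midpoint, 15.8% of coding and 12.8% of intronic bases lay in footprints in replicate 1, and 23.4% and 21.03% in replicate 2. Beyond 100 bases the shares were 4.44% and 2.57% in replicate 1, and 7.55% and 6.395% in replicate 2.

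**Figure D3:**
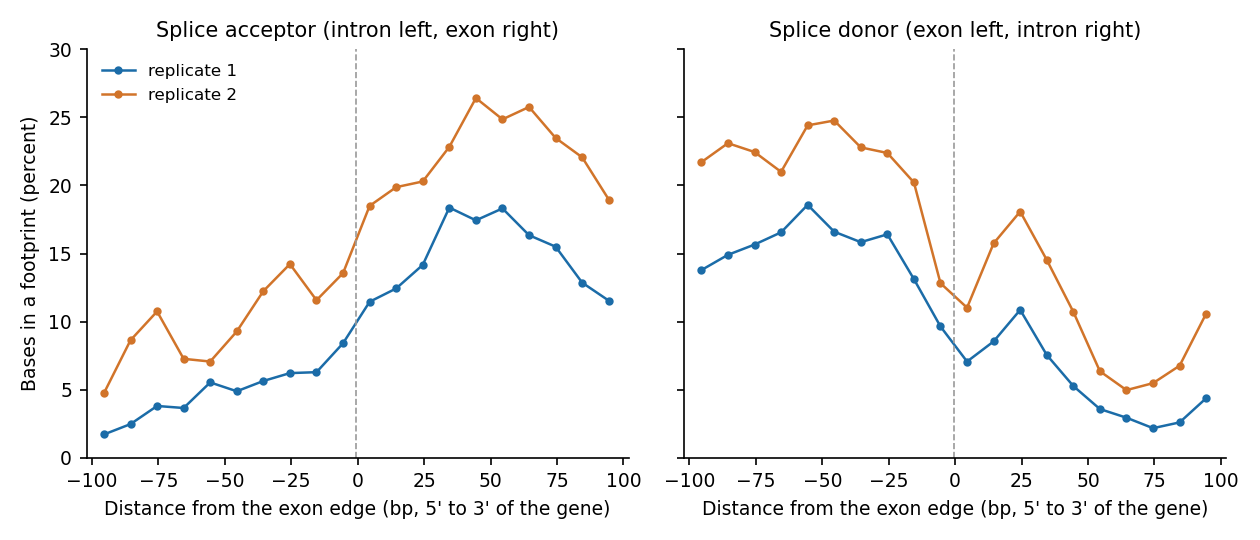
Percent of bases inside a footprint by distance (bp, in bins of 10) from the exon edge, over the coding-exon DHSs that hold the splice acceptor (480 regions, left) or donor (365 regions, right), in replicate 1 (blue) and replicate 2 (orange). The dashed line is the exon edge, and both libraries are higher on the exon side of acceptors. On the intron side of donors both have a second rise from 20 to 29 bases (10.9% and 18.1%), above the last 10 exonic bases (9.64% and 12.8%).

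The 3 codon positions were footprinted alike. In replicate 1, the shares in a footprint at codon positions 1, 2 and 3 were 10.3%, 10.4% and 10.3%, and in replicate 2 each position had 16.02%. Each position held between 72722 and 72781 bases, and differences between positions were under 0.1 percentage points in both libraries.

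The DNA of coding-exon DHSs was rich in GC and CpG. Median GC content was 56.2%, beside 51.1% in other exons, 49.7% in introns, 49.0% in intergenic DNA and 61.0% at shared DHSs within 1 kb of a TSS. The CpG ratio, the number of CpG sites over that expected from the C and G content, had a median of 0.459, against 0.246 in introns and 0.257 in intergenic DNA. The comparison with coding sequence goes the same way, since the coding bases inside these regions had 59.6% GC and a CpG ratio of 0.667, and all coding DNA beyond 1 kb from a TSS 50.8% and 0.397.

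A CpG-rich subset stood out by description. With at least 50% GC and a CpG ratio of at least 0.6, it held 343 regions, or 32.1%, against 3.08% of intronic and 59.3% of promoter DHSs. These regions had median signals of 0.863 and 0.796, and the other 725 had 0.632 and 0.662. Last or single coding exons held 62.4% of the CpG-rich regions and 27.2% of the others. A start of a RefSeq transcript lay within 1 kb of 11.1% and 2.76%. Their median log2 ratio of replicate 2 to replicate 1 was -0.18, against -0.02, so the libraries differed slightly along this axis.

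The highest CpG ratios were in very different genes. Zfp771 had 1.32, Snx20, a sorting nexin gene, 1.30 with signals of 2.02 and 1.64, and C1qtnf4 1.29 with 0.894 and 0.732. Apba1, which encodes a presynaptic adaptor protein, had 1.29 with 1.01 and 1.33 in a first coding exon with 1215 coding bp. Sox4, a transcription factor gene with a single exon, had 1.26 with 0.447 and 0.383. The Apba1 region was 11066 bp from the nearest TSS, and 24166 bp from the nearest RefSeq start.

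Of the 20 motifs searched, the CTCF consensus had the widest gap between coding-exon DHSs and coding DNA without a peak. It was matched in 139 of the 1068 regions, or 13.0% (11.1 to 15.2), beside 14.7% (13.2 to 16.3) of other-exon, 10.6% of intronic, 12.3% of intergenic and 4.89% of promoter DHSs. Windows of 150 bases hold width fixed. There the match was in 12.3% of coding-exon DHSs and in 0.246% (0.205 to 0.295) of 46755 coding windows without a peak in either library. Composition differs, since coding bases inside these regions had 59.6% GC and all coding DNA beyond 1 kb from a TSS 50.8%. Windows on DHSs also take in non-coding bases, since the midpoint lay a median of 69 bp from the nearest coding edge. How many of the matches lay in coding bases is not given here, and the Dgki match was intronic. Neither the part of composition nor that of non-coding bases in this gap and those below was tested. Of 141 matches, 64 were on the strand of the gene and 77 on the other. Footprints held 63.8% of the matches in replicate 1 and 75.2% in replicate 2, and 82 regions had a match in a footprint of both libraries. For matches in introns the shares were 70.7% and 83.0%.

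Regions with a CTCF match were stronger than the rest. They had medians of 1.05 in replicate 1 and 0.916 in replicate 2, while the 929 regions without one had 0.640 and 0.662. Footprints in both libraries were found in 95.7% and 77.3%. GC content hardly differed, at medians of 55.0% and 56.4%. Among the 100 regions with the highest mean signal 26 had a match, but of the 10 highest only Synpo2l. A CTCF match went with a higher value in replicate 1: 25.9% of these regions were higher in replicate 2, against 46.4% of the others. Both regions whose sequences are printed above were strong, with 4.01 and 4.26 in Synpo2l and 2.99 and 2.84 in Dgki.

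After CTCF, the widest gap in percentage points was that of the E-box CAGCTG, in 24.8% of windows in coding-exon DHSs and 14.3% of coding windows without a peak. The NFI consensus (0.187% and 0.00642%) and the RFX half-site (1.78% and 0.0770%), which can overlap an RFX match, were rare in both. Motifs rich in G and C were also compared. EGR (GCGNGGGCG) was matched in 46 regions (4.31%) against 0.635% of intronic DHSs, NRF1 in 29 (2.72%) against 0.325%, SP/KLF (GGGGCGGGG) in 27 (2.53%) against 1.38%, and ETS (CCGGAAG) in 46 (4.31%) against 1.55%. An EGR match can share bases with an SP/KLF match, so these counts are not separate. In windows of 150 bases, EGR was in 2.81% of coding-exon DHSs and 0.210% of coding windows without a peak, and NRF1 in 1.78% and 0.1198%. ETS stood at 2.43% and 2.28%, which are close to each other. Footprints of both libraries held the whole match in 8 regions for EGR and 4 for NRF1.

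Motifs rich in A and T were rarer here than in introns. The homeodomain core (TAATTA) was in 1.498% of regions against 4.68% of intronic DHSs, the POU octamer (ATGCAAAT) in 0.281% against 1.98%, and MEF2 in 0.375% against 1.34%. AP-1 (TGANTCA), the motif of Fos and Jun, was in 6.27% against 12.3%, and SOX (ACAANGG) in 8.99% against 11.2%. Coding DNA without peaks was also low in most of them, by windows of 150 bases. TAATTA was in 0.977% of these windows and AP-1 in 2.96%, where coding-exon DHSs had 0.468% and 3.37%. SOX went the other way, with 7.41% of coding windows without a peak, 4.78% of coding-exon DHSs and 6.89% of intronic ones. The E-box CAGCTG, bound by bHLH proteins, was the most frequent of the motifs searched, in 33.6% of regions against 24.1% of intronic DHSs. RFX was matched in 10 regions with none of the matches in a footprint, AP-1 in 67 with 4 of 68 matches in a footprint in replicate 2, and REST in none.

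**Figure D4:**
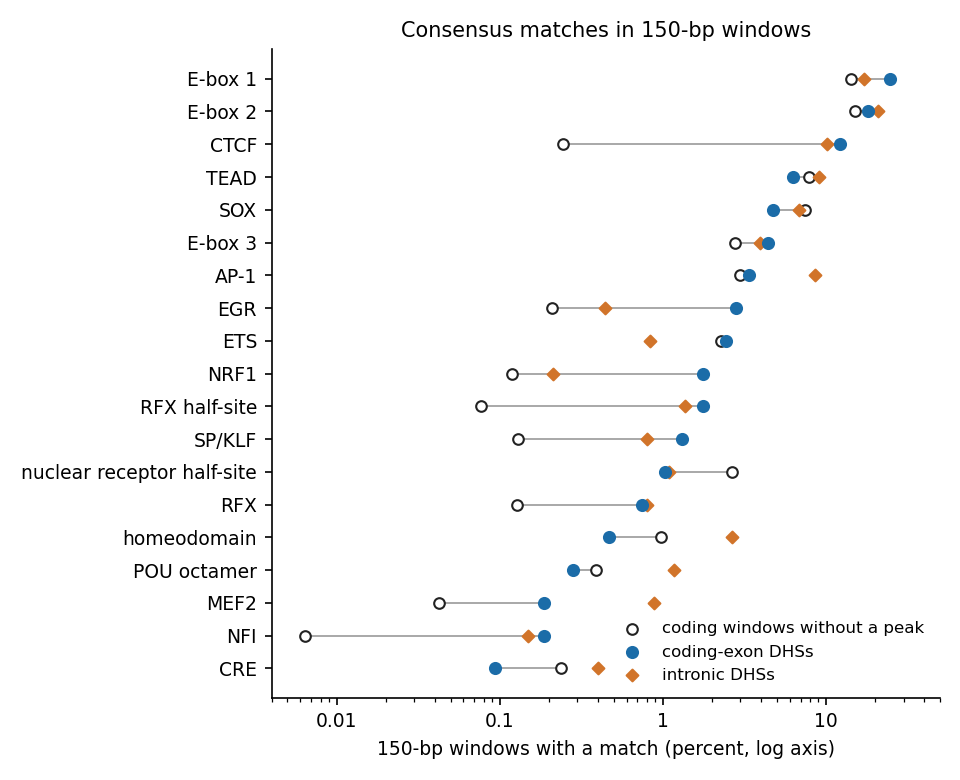
Percent of 150-bp windows with a match on either strand (log axis) for coding-exon DHSs (blue), intronic DHSs (orange diamonds) and coding windows without a peak (open circles), by motif. E-box 1 is CAGCTG; E-box 2 is the CAGATG form, and E-box 3 the CACGTG form. REST had no match in coding-exon DHSs and is left out. Windows on coding-exon DHSs can take in non-coding bases. CTCF shows the widest gap in percentage points between coding-exon DHSs and coding windows without a peak (12.3% against 0.246%).

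Of 19214 protein-coding genes with coding DNA over 1 kb from any TSS, 968 had at least 1 coding-exon DHS, which is 5.04%. Of these, 879 had exactly 1, 79 had 2 and 10 had 3 or more, and 4 regions lay in coding exons of 2 genes. By the coding length available, 1.43% of the genes with least coding DNA (group 1 of 5 equal groups) had one and 10.9% of those with most, while the number per Mb was 67.5 and 37.0. A promoter DHS, which by its definition cannot be one of the coding-exon DHSs, was present in 72.9% (70.05 to 75.6) of the 968 genes and in 66.4% (65.7 to 67.1) of the others.

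Coding-exon DHSs were about as strong in genes without a promoter DHS. The 283 regions in them had the same medians, 0.686 in replicate 1 and 0.692 in replicate 2, as the 785 in genes with a promoter DHS. The 5 strongest, named after their values were seen, were in Angptl6, Synpo2l, 2310034G01Rik, Klf1 and Apoa1. The Angptl6 and 2310034G01Rik regions lay 269 and 17 bp from a RefSeq start of the same gene. The definition of a promoter DHS, by GENCODE starts, does not count these. Those of Klf1 and Apoa1 lay 1263 and 1360 bp from the nearest GENCODE TSS.

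The genes with most coding-exon DHSs were long, or had 1 long exon. Tchh, which encodes trichohyalin of the hair follicle, had 5 in its last coding exon, with 4659 coding bp, and no promoter DHS. Their signals ran from 0.247 to 1.02 in replicate 1 and from 0.164 to 0.931 in replicate 2, and footprints from 0 to 11. Muc6, a gastric mucin gene, had 4 in 1 exon of 4329 bp, also with no promoter DHS. There 20.1% to 79.1% of the 31-base stretches were repeated, so reads of 1 repeat unit may count in another. Regions in 1 exon share their surroundings and are not independent.

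The other 8 of these genes had a promoter DHS. Dst, which encodes the cytoskeletal linker dystonin, had 4 over 3 exons, with 1.04 and 1.25 in the strongest, and 2 of the 4 held a CTCF match. Syne1, the gene of the nuclear envelope protein nesprin-1, had 4 in 4 exons between 0.408 and 0.855 in replicate 1 and between 0.602 and 0.762 in replicate 2. Casz1, a zinc finger transcription factor gene, had 3 next to each other in its last coding exon, and all lay within 1 kb of the start of the RefSeq gene Gm13205. Fzd8, a Wnt receptor gene with 1 coding exon, and Slitrk1, which encodes a synaptic adhesion protein, each had 3 in that exon. Per kb of eligible coding DNA these were the densest, with 1.66 in Fzd8 and 1.52 in Slitrk1, against 0.158 in Dst. The Fzd8 regions lay next to each other, at 405, 765 and 1453 bp from a RefSeq start of Fzd8 itself. The nearer ones were thus within 1 kb of a start that the rule, by GENCODE starts, does not count. Those of Slitrk1 were all over 1 kb from a RefSeq start. Cacna1b, Sptbn4 and Utrn, the gene of the dystrophin relative utrophin, also had 3 each.

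The 18 gene lists describe which kinds of gene carried such sites, against the 5.04% of all genes tested. They held 40 genes with a coding-exon DHS and 51 regions, with median signals of 0.701 and 0.747. Of the 51, 47 were in genes with a promoter DHS, where the share over all coding-exon DHSs was 73.5%. Footprints in both libraries were found in 42 of the 51, where the share over all coding-exon DHSs was 79.7%. Checked by promoters, the tissue showed 15 of 15 pan-neuronal and 13 of 15 glutamatergic genes with a promoter DHS, 9 of 16 interneuron, 10 of 13 astrocyte, 6 of 12 oligodendrocyte, 4 of 12 microglia and 3 of 11 endothelial or mural genes, and 12 of 12 housekeeping genes. In the hindbrain, liver, muscle and blood lists the counts were 0 of 13, 1 of 13, 4 of 12 and 2 of 10. Over all genes tested, 12820 of 19214 had a promoter DHS, so counts of promoters are to be read against that share. The lists differ in coding length, so the number per Mb, 42.5 over all genes, is given beside the shares. A list with little coding DNA can reach a high number per Mb with 1 or 2 regions.

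Of genes of the cytoskeleton and axon, 7 of 25 had such a site, with 12 regions, or 62.9 per Mb. The count was 2 with the stricter peak lists, 4 with at least 50% of bases coding and 13 without replicate 1, so its place among the lists changed with the processing. Sptbn4, which encodes the spectrin of the axon initial segment, had 1.54 and 1.23 in coding exon 16, and 0.879 and 0.687 and 0.794 and 0.757 in exons 20 and 13. Mapt, the gene of the microtubule-binding protein tau, had 1.202 and 1.13 over coding exon 3, 7530 bp from a TSS. Single regions were found in Kif5c, a kinesin gene (0.763 and 0.971), Sptan1, an alpha spectrin gene (0.701 and 0.851), Ank2, an ankyrin gene (0.801 and 0.513), and Macf1, a gene for a cytoskeletal crosslinker (0.455 and 0.403). Dst, described above, is in the same list.

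Ion channel and receptor genes had 5 of 25 with 8 regions, or 107 per Mb. Cacna1b, which encodes the pore of N-type calcium channels, had 0.717 and 0.901, and 0.686 and 0.697, at neighbouring sites of coding exon 19, and 0.501 and 0.662 in another exon. Cacna1a, the P/Q-type relative of Cacna1b, had its only coding-exon DHS in exon 19 as well, with 0.601 and 0.811. Scn8a, a sodium channel gene, had 1.07 and 0.831, and Kcna1, a potassium channel gene with a single coding exon, had 0.655 and 0.687 and 0.455 and 0.363. Cacna1c, the gene of an L-type calcium channel, had 0.455 and 0.363. None of the 8 regions held a CTCF match.

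Synaptic scaffold and active zone genes had 4 of 23, or 50.3 per Mb. Unc13a, which encodes a vesicle priming protein, had 3.07 and 2.82 in its last coding exon, at a RefSeq start of another gene as given above. Dlgap3 (0.917 and 0.667) and Shank3 (0.663 and 0.767) encode postsynaptic scaffolds, and Rims1 (0.470 and 0.338) an active zone protein. Chromatin and transcription regulators had 8 of 35, or 50.1 per Mb. Ankrd11 had 1.65 and 1.82, the histone methyltransferase gene Kmt2a 1.39 and 1.16, and Ncor1, a corepressor gene, 0.709 and 1.29. Chd7, a remodeller gene, had 0.670 and 0.816 and 0.624 and 0.737, while Gse1, Zfhx2, Tcf20 and Bcor lay between 0.358 and 0.948. Kmt2a was the only 1 of the 8 genes with a CTCF match there.

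Adhesion, cadherin and guidance genes had 5 of 30, or 38.6 per Mb, below the 42.5 of all genes. Besides Pcdh10, they were Pcdh17 (0.925 and 0.428, and 0.478 and 0.269), Lrp1 (0.647 and 0.622, with a CTCF match), Fat4 (0.339 and 0.836) and Fat2 (0.439 and 0.343). Fat4 was more than 2-fold higher in replicate 2 and a Pcdh17 region more than 2-fold higher in replicate 1. Among activity-regulated genes, 1 of 13 (92.7 per Mb), Junb, which encodes an AP-1 subunit, had 1.13 and 0.747 in its single exon, 1081 bp from a TSS.

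Each cell type list held from 0 to 2 genes with a coding-exon DHS. The counts were 2 of 13 astrocyte genes (186 per Mb), 1 of 12 oligodendrocyte genes (55.5), 1 of 12 microglia genes (62.2), 2 of 11 endothelial and mural genes (62.9) and 1 of 15 pan-neuronal genes (52.5), the last being Mapt. Of glia, Gfap, the astrocyte filament gene, had 0.740 and 1.18 with 2 CTCF matches, Sox9, an astrocyte transcription factor gene, 0.408 and 0.473, Pdgfra, a receptor of oligodendrocyte precursors, 0.408 and 0.592, and the microglial receptor gene Cx3cr1 0.347 and 0.289 without a footprint. Of vessels, Notch3, a receptor of mural cells, had 1.91 and 1.60, and Abcc9, a channel subunit gene of mural cells, 0.408 and 0.279. No glutamatergic (0 of 15), interneuron (0 of 16), housekeeping (0 of 12) or hindbrain gene (0 of 13) had one. Their eligible coding DNA came to 25.3 kb, 16.4 kb, 12.9 kb and 8.28 kb in all.

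In the blood, liver and muscle lists, 2 of 10 blood genes (296 per Mb), 1 of 13 liver genes (34.0) and 1 of 12 muscle genes (12.1) had a coding-exon DHS. Of these genes, 3 had sites stronger than any in the cell type lists. Klf1, an erythroid transcription factor gene, had 3.40 and 2.70 with 5 footprints in each library, and Apoa1, a liver apolipoprotein gene, 2.92 and 2.96. Neither had a promoter DHS, but these regions lay only 1263 and 1360 bp from the nearest TSS. With a TSS distance of 2 kb the blood count was 1 and the liver count 0. Spi1, which encodes the myeloid factor PU.1, had 2.75 and 2.10 in its last coding exon. Ryr1, the calcium release channel of skeletal muscle, had 0.586 and 0.463, and 0.416 and 0.398. Spi1 and Ryr1 both had a promoter DHS, so these lists are not made up only of genes without an open promoter in this tissue. A site in them cannot be taken as one of another tissue. The Klf1, Apoa1 and Spi1 regions had CpG ratios of 0.920, 0.714 and 0.717 and were wholly coding.

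**Figure D5:**
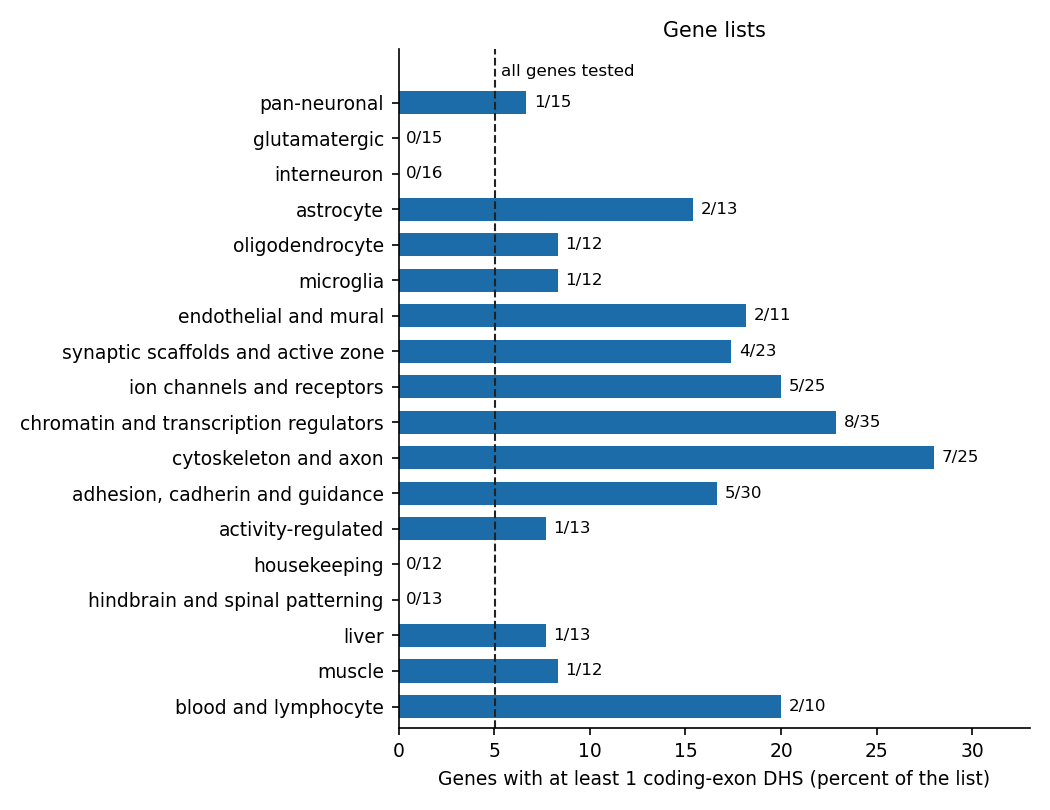
Percent of the genes of each list with at least 1 coding-exon DHS, with the count of genes at the end of each bar. The dashed line is the share of all genes tested (5.04%); cytoskeleton and axon genes (7 of 25) have the longest bar with these settings but not under every alternative, and 4 lists have none.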

How the data were processed

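DNase-seq of left cerebral cortex was deposited as 2 libraries, each with 2 peak lists, footprints and a list of segments of raised cleavage, all on mm10. Per the notes deposited with the files, each library was processed from its own alignments, and peaks were not pooled. Which aligner, peak caller and footprint caller were run is not given in the sources used. The signal values in the peak lists are the authors', with no unit stated, and stand at whole multiples of 1 step per library. The q-value of each segment is the authors' and reaches 0.05 at most, so only the share of bases inside segments was used, and the lowest q-value per region was not computed. The deposited footprints all carry the same p-value of 0.01, so only their positions were used. No read totals were in the files, so the depth is unknown.

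For each library the peak list with more entries was used (90059 and 175597 peaks), peaks of both libraries overlapping by at least 1 bp were merged, and a region holding a peak of each was shared. Exons, coding sequence and TSSs came from GENCODE M21, and sequence and the second set of transcript starts from RefSeq GRCm38.p6. Classes were set by the midpoint. A promoter DHS of a gene is a shared DHS within 1 kb of one of its TSSs whose midpoint is within 1 kb of a TSS. A repeated stretch is 31 bases found elsewhere in the genome, and a region counted as repeated above 10% of such stretches. Motifs were searched on both strands as exact consensus matches, by name where the consensus holds ambiguous letters.

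The genes named are the 10 regions with the highest mean signal, the 10 genes with most regions, the 5 with the largest log2 ratio in each direction in the upper part by signal, the 5 with most footprints, the 5 with the highest CpG ratio, genes of the lists, the 2 strongest with a footprinted match per motif, and the 2 on either side of the 1 kb limit. Others are said to be chosen after their values were seen. The members and lists were chosen with earlier results of these data known. Replicates are compared as values only: with 1 group there is no test, and 95% Wilson intervals cover counting error only. In all, 11 alternative settings were planned, and 1, leaving out regions near RefSeq starts, was added after seeing the data. The scripts, which were tested on simulated data, ran under Python 3.11.15 with pandas 2.3.3 and NumPy 2.4.6 for tables, Numba 0.67.0 for the search of repeats, SciPy 1.17.1 for intervals and Matplotlib 3.10.9 for figures.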

Additional observations from a re-analysis of the deposited data

How the results depend on the processing

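The 2 libraries have unknown depth, which limits every value, and the weaker sites depend on how many peaks were called. With the stricter peak lists there were 526 coding-exon DHSs in 496 genes, 93.3% had a footprint in both libraries, median GC content was 57.4%, and 19.4% held a CTCF match. With a TSS distance of 500 bp, 76.6% had footprints in both and GC content was 58.0%, and with 2 kb GC content was 55.0% and 70.2% crossed a coding boundary. With peak pairs overlapping by at least 50% of both, 86.2% had footprints in both and 15.6% a CTCF match, and with equal numbers of the highest peaks 88.0% and 15.4%. With at least 50% of bases coding, GC content was 57.3% and 61.1% crossed a boundary. From 1 library alone there were 1389 to 2380 regions in 1172 to 1985 genes, 34.9% to 62.0% had footprints in both libraries, GC content was 54.7% to 57.2%, 6.85% to 10.3% held a CTCF match and 51.8% to 58.4% crossed a boundary. The ratio to the intronic median was then 0.975 for replicate 1 and 1 for replicate 2, against 1.03 and 0.908. The cause of these shifts was not tested. Of 162 counts for gene lists, 41 were over 1.5 times from those reported (24 lower, 17 higher). Leaving out regions near RefSeq starts gave 1010 regions in 921 genes and moved none of these totals, shares and medians beyond its spread, but was not run for the gene lists, exon positions, other motifs or CpG-rich subset, and it removes Angptl6 and Unc13a. No paired analysis was possible because there was 1 group.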
